A study of Sus scrofa with 20 samples.

Results

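Glycolysis enzymes were studied in the caecal mucosa of pigs divergent in feed efficiency. Of 10 listed enzyme genes, taken by the gene symbol of the array annotation, 5 had values in the deposited table and are described here, namely HK1, ALDOA, TPI1, PGK1 and PGAM1. They carried 14 of the 25092 probesets with values, a probeset being a group of array probes summarised to 1 value, and 5 of the 10567 named genes with values. The brightest probeset over 20 pigs stood for each gene, and the others were used as a check. ENO1 and PFKP were named on the array but had no values, HK2, PKM and LDHA matched no symbol, and these 5 genes were not analysed here.

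Glycolysis is the cytosolic pathway that splits glucose into pyruvate and yields ATP without oxygen. Hexokinase traps glucose as glucose 6-phosphate, aldolase splits the doubly phosphorylated fructose, and triosephosphate isomerase, phosphoglycerate kinase and phosphoglycerate mutase carry the resulting trioses toward pyruvate. In the hindgut, surface epithelial cells obtain much of their energy by oxidising butyrate from bacterial fermentation, while glycolysis runs beside this in epithelial, immune and stromal cells.

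The 20 pigs were Large White x Landrace crosses, 10 of high feed efficiency (low residual feed intake, RFI) and 10 of low feed efficiency (high RFI), and the classification was made within litter and sex. Each of 5 sows contributed 4 littermates, with each sex represented once at either efficiency level, so that 10 pairs shared sow and sex. Litters were penned together, so litter and pen cannot be told apart. Neither an agent nor a genetic modification was part of the design, the labels give no age, and slaughter batch, a term of the study's model, is not in the labels. Total RNA from scraped mucosa was measured on 1 Affymetrix snowball array per pig, and values are log2 signals after robust multichip averaging (RMA).

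Array medians lay between 4.72 and 4.84 and upper quartiles between 6.25 and 6.30 on the log2 scale, and the correlation between arrays was between 0.942 and 0.974 over 190 pairs. Of 13 epithelial marker genes, 7 were measured, and none fell below the 5% quantile of probeset means, 1.62. KRT8 and KRT20, keratins of gut epithelium, averaged 12.3 and 12.1. Scraped mucosa is a mixture of cells, and a lower value from fewer cells of a type cannot be told apart from less RNA per cell. With 10 arrays a group, array number sets the precision of these values.

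HK1, which encodes a hexokinase, lies on chromosome 14 (72383328 to 72460927, Sscrofa11.1). ALDOA, encoding aldolase A, lies on chromosome 3 (18246036 to 18260167). TPI1, encoding triosephosphate isomerase, lies on chromosome 5 (63839473 to 63842853). PGK1, encoding phosphoglycerate kinase, which forms ATP in the pathway, is X-linked (62187472 to 62210321). PGAM1, encoding phosphoglycerate mutase, lies on chromosome 14 (108822782 to 108832818). In humans several of these genes have processed pseudogenes, and whether array probes here were shared with such copies was not tested.

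For none of the 5 enzymes was a difference with feed efficiency larger than the spread between pigs found. The means of both groups were within 0.06 of each other on the log2 scale, and the ranges of both groups overlapped for each gene. By limma with sow as a factor, 0 of 5 were called at an adjusted p of 0.05 and 0 of 5 had an unadjusted p under 0.05, against calls for 0% of all 23140 probesets tested, of which 4.48% had an unadjusted p under 0.05 and for which the median difference was 0.0035. The median difference of the 5 enzymes was 0.02, and 4 of 5 were above 0, so the counts do not set them apart from the rest of the array.

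HK1 had values from 8.86 to 9.35 with a median of 9.06 in pigs of high feed efficiency, and from 8.80 to 9.19 with a median of 9.05 in pigs of low feed efficiency. The means were 9.08 ± 0.16 and 9.03 ± 0.12 (SD, n = 10 each) in pigs of high and of low feed efficiency. The difference was 0.05 ± 0.07 (SE, limma adjusted p = 0.98), and the pig of high feed efficiency was above its sibling in 6 of 10 pairs.

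For ALDOA, which had the smallest difference, the pigs of high feed efficiency ranged from 10.90 to 11.69 with a median of 11.40, and those of low feed efficiency from 11.08 to 11.52 with a median of 11.39. Pigs of high feed efficiency averaged 11.34 ± 0.25 and those of low feed efficiency 11.34 ± 0.16 (SD, n = 10 each). The difference was 0.003 ± 0.09 (SE, limma adjusted p = 0.999), and 4 of 10 pairs were higher in the pig of high feed efficiency. The highest and the lowest pig of all 20 were both of high feed efficiency.

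TPI1 varied most among the 5 enzymes. Values ran from 5.49 to 6.56 (median 6.27) in pigs of high feed efficiency and from 4.95 to 6.998 (median 6.27) in pigs of low feed efficiency, whose range enclosed that of the other group. The means were 6.13 ± 0.37 in pigs of high and 6.15 ± 0.60 in pigs of low feed efficiency (SD, n = 10 each), a difference of -0.02 ± 0.20 (SE, limma adjusted p = 0.999).

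PGK1 ranged from 9.88 to 10.44 (median 10.16) in pigs of high feed efficiency and from 9.61 to 10.40 (median 10.12) in pigs of low feed efficiency. The means were 10.14 ± 0.17 and 10.12 ± 0.23 (SD, n = 10 each) for high and low feed efficiency, with a difference of 0.02 ± 0.09 (SE, limma adjusted p = 0.993). PGAM1 ranged from 8.60 to 9.21 (median 8.92) in pigs of high feed efficiency and from 8.34 to 9.05 (median 8.91) in pigs of low feed efficiency. Its means were 8.91 ± 0.25 and 8.86 ± 0.21 (SD, n = 10 each) for high and low feed efficiency, with a difference of 0.06 ± 0.09 (SE, limma adjusted p = 0.98). The single pig at 9.61 for PGK1 and 8.34 for PGAM1 was the low feed efficient male of sow 1435, which set the lower end for both genes.

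**Figure D1:**
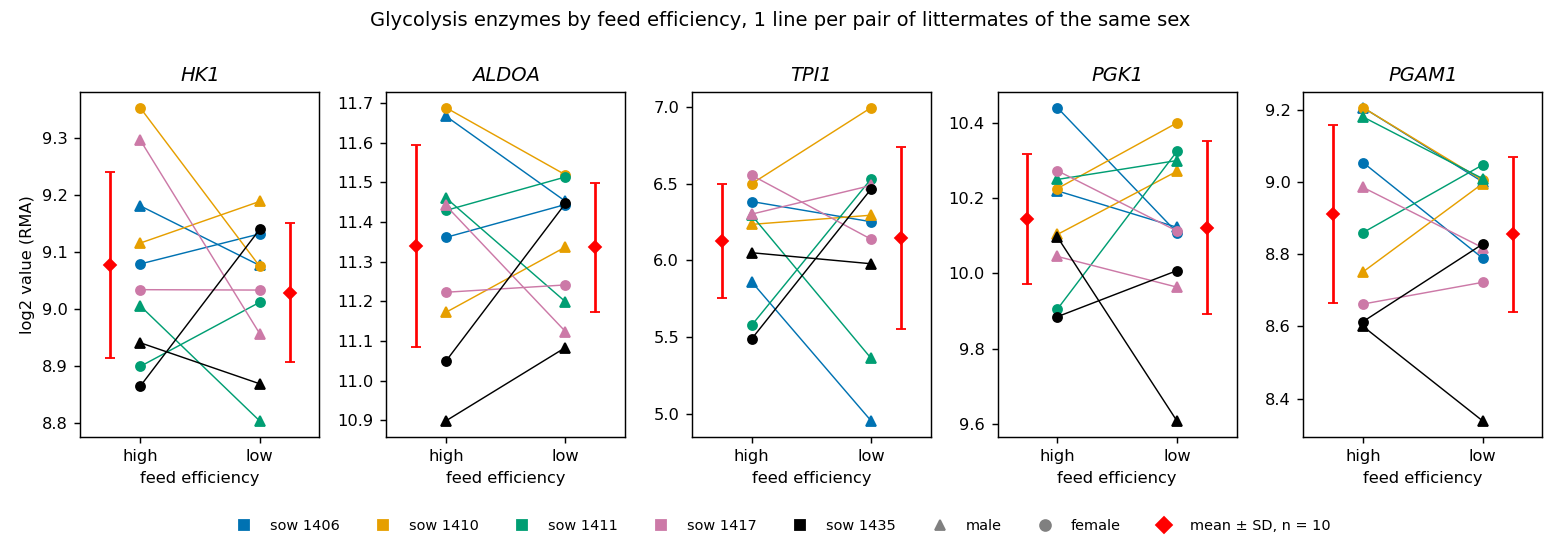
Log2 RMA values (y axis) of the 5 enzymes in pigs of high and low feed efficiency (x axis), with a line joining littermates of the same sex, colours for sows, and red diamonds and bars for the mean ± SD of 10 pigs. The lines cross in both directions, with 4 to 6 of 10 pairs higher in the pig of high feed efficiency.

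The intervals bound the size of a difference that these pigs could hold. The 95% interval of the fold, high over low feed efficiency, was 0.934 to 1.15 for HK1, 0.879 to 1.14 for ALDOA, 0.895 to 1.15 for PGK1 and 0.917 to 1.18 for PGAM1. The interval for TPI1 was wider, from 0.741 to 1.31. The 9 other probesets of HK1 and PGK1 had differences between -0.02 and 0.17, with limma adjusted p between 0.98 and 0.997, and every 95% interval of the log2 difference held 0. The widest interval, a fold of 0.633 to 1.88, belonged to a PGK1 probeset with a mean of only 4.95.

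**Figure D2:**
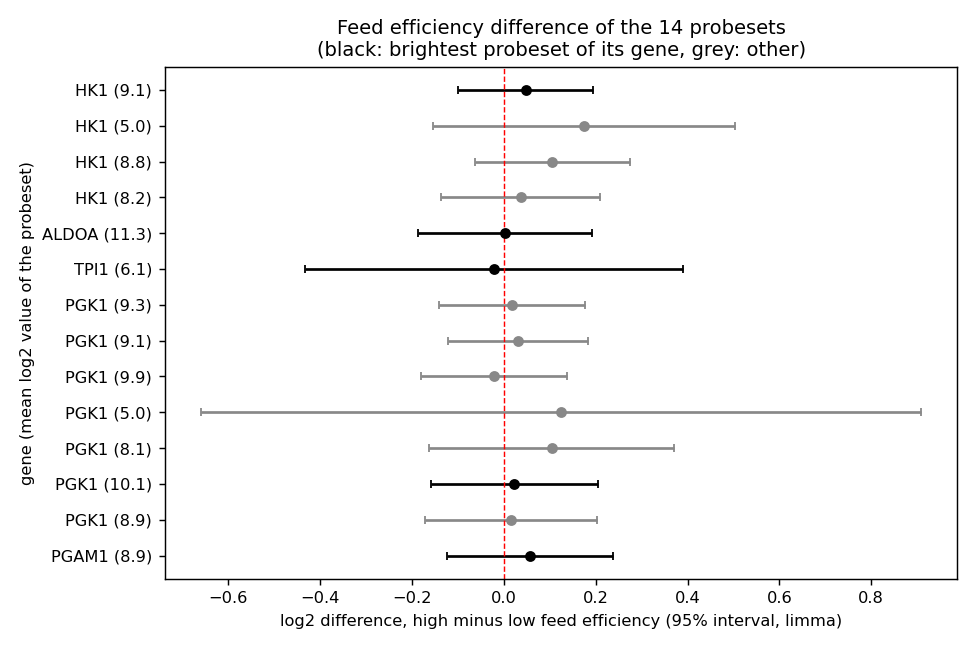
Log2 difference, high minus low feed efficiency (x axis), with its 95% interval from limma for the 14 probesets (y axis, mean log2 value in brackets). Every interval spans 0, and the dim probesets of HK1 and PGK1 (means near 5) have the widest intervals together with TPI1.

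The probesets of a gene were compared because each reads a different stretch of its transcripts. For HK1, 2 further probesets followed the brightest one over the 20 pigs (r = 0.84 and 0.88), while the dim one did not (r = -0.11). For PGK1 the 6 further probesets correlated with the brightest at r between 0.51 and 0.87, the lowest value belonging to the dim probeset. These values are descriptions, since probesets of 1 gene share the same RNA.

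Between litters none of the 5 enzymes was called, and PGAM1 had the smallest p among their brightest probesets. Another PGK1 probeset, described below, had a smaller p. By the limma F test over 5 sows, 0 of 5 passed an adjusted p of 0.05, against 0.126% of 23837 probesets (30 probesets), and 1 of 5, PGAM1, had an unadjusted p under 0.05, against 16.1% of all probesets. The gap between the highest and the lowest litter mean was 0.25 for HK1, 0.36 for ALDOA, 0.64 for TPI1, 0.35 for PGK1 and 0.43 for PGAM1, and the median of these gaps was 0.36, against 0.42 over all probesets. The litter of sow 1435 had the lowest mean for ALDOA, PGK1 and PGAM1, so the gap must narrow when it is left out. Without this litter the gap was 0.22 for ALDOA, 0.15 for PGK1 and 0.23 for PGAM1 (limma adjusted p = 0.711, 0.855 and 0.656). Litter took 48.5% of the variance of HK1, 42.3% of ALDOA, 29.3% of TPI1, 43.8% of PGK1 and 56.6% of PGAM1, where the median over all probesets was 27.4% and the upper quartile 39.6%. Feed efficiency took at most 3.03% of the variance of the brightest probesets, in HK1, and 8.09% in another HK1 probeset.

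In the litter of sow 1435, ALDOA, PGK1 and PGAM1 had their lowest litter means. PGAM1 read 8.60 and 8.61 in the male and the female of high feed efficiency, and 8.34 and 8.83 in the male and the female of low feed efficiency. That litter averaged 8.60 ± 0.20, against 9.02 ± 0.13 in the litter of sow 1411, the highest (SD, n = 4 each; limma unadjusted p = 0.0281 and adjusted p = 0.264 over the 5 litters). The 4 pigs of sow 1411 lay between 8.86 and 9.18, so the ranges of these litters, picked as the lowest and the highest, did not overlap. Against all other litters they did, since the highest pig of sow 1435 was at 8.83 and the lowest pig of the others at 8.66.

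ALDOA was 10.90 and 11.05 in the male and the female of high feed efficiency of sow 1435, and 11.08 and 11.45 in those of low feed efficiency. The litter mean of 11.12 ± 0.23 compared with 11.48 ± 0.13 in the litter of sow 1406 (SD, n = 4 each; limma adjusted p = 0.4 over the 5 litters). The female of low feed efficiency of sow 1435 lay within the range of the litter of sow 1406, 11.36 to 11.67.

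PGK1 was 10.10 and 9.88 in the male and the female of high feed efficiency of sow 1435, and 9.61 and 10.01 in those of low feed efficiency. The mean was 9.90 ± 0.21, against 10.25 ± 0.12 in the litter of sow 1410 (SD, n = 4 each; limma adjusted p = 0.407 over the 5 litters). All 7 PGK1 probesets, which share the same RNA, had their lowest litter mean in sow 1435. The one with the smallest p, with a mean of 9.31, was at most 9.06 in that litter and at least 9.21 in the 16 other pigs, and its limma adjusted p was 0.14 (unadjusted p = 0.00253). In every other PGK1 probeset the values of that litter overlapped those of the other pigs. How many of all probesets separate a litter in this way was not counted.

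The brightest HK1 probeset was lowest in the litter of sow 1411 (8.93 ± 0.10) and highest in that of sow 1410 (9.18 ± 0.12; SD, n = 4 each), with the litter of sow 1435 next to the lowest at 8.95. The other HK1 probesets that followed it were lowest in sow 1435, at 8.63 and 8.04, and the dim one in sow 1410. In all, 11 of the 14 probesets had their lowest litter mean in sow 1435, 7 of them of PGK1, and so had 3 of the 5 brightest ones. The share of all probesets that were lowest in that litter was not counted, so this does not set the enzymes apart. TPI1 was lowest in the litter of sow 1406 (5.86 ± 0.65) and highest in that of sow 1410 (6.51 ± 0.35; SD, n = 4 each). The low mean of sow 1406 for TPI1 came with 1 male of low feed efficiency at 4.95, while its littermates read 5.86, 6.38 and 6.25. Neighbouring litters in the orders of the brightest HK1 probeset and of TPI1 overlapped.

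**Figure D3:**
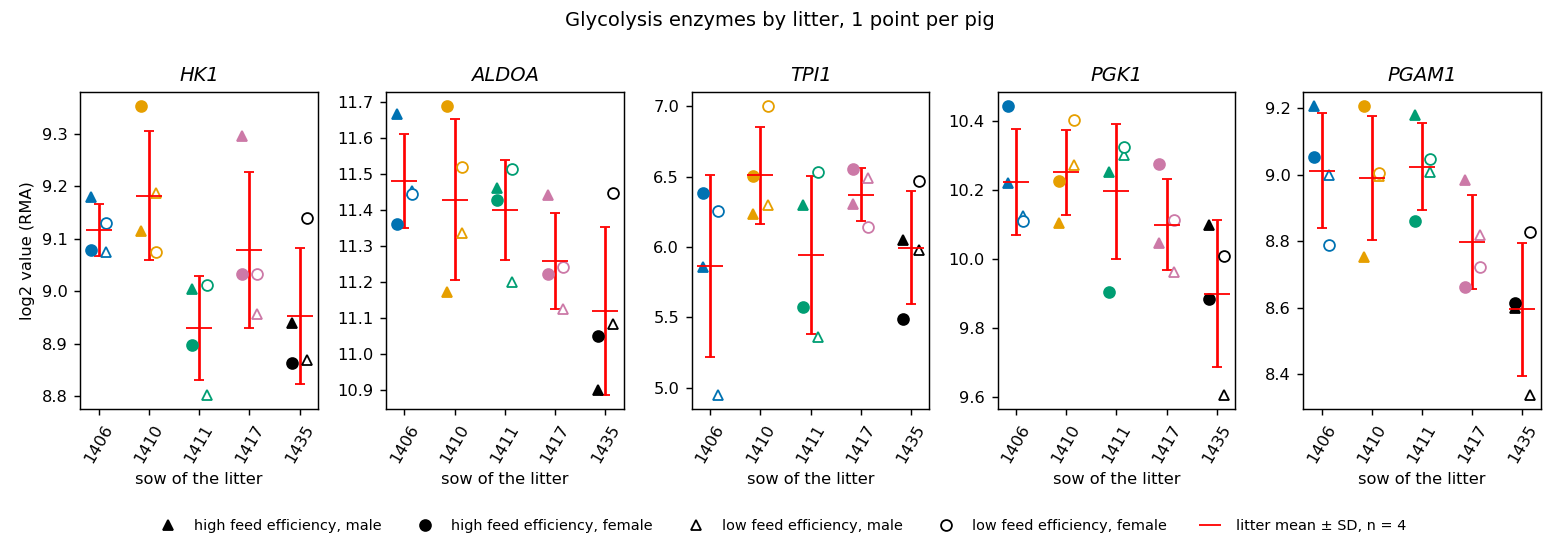
Log2 RMA values (y axis) of the 5 enzymes in each of 5 litters (x axis), with filled symbols for high and open symbols for low feed efficiency, and red bars for the litter mean ± SD of 4 pigs. The litter of sow 1435 has the lowest mean for ALDOA, PGK1 and PGAM1, and the brightest HK1 probeset (8.95, against 8.93 in sow 1411) and TPI1 are lowest in other litters.

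Sex was set against the same values because each litter held both. None of the 5 enzymes was called by limma between males and females, and 0 of 5 had an unadjusted p under 0.05, against 0% called and 4.29% at an unadjusted p under 0.05 of 23837 probesets. TPI1 had the widest difference, averaging 5.98 ± 0.48 in males and 6.29 ± 0.46 in females (SD, n = 10 each), a difference of -0.31 ± 0.19 (SE, limma adjusted p = 0.9999). The ranges, 4.95 to 6.49 in males and 5.49 to 6.998 in females, overlapped. PGK1, although X-linked, averaged 10.10 ± 0.20 in males and 10.17 ± 0.20 in females (limma adjusted p = 0.9999), and the other 3 enzymes differed by at most 0.11.

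The feed efficiency difference in males was then compared with that in females by the interaction term. None of the 5 enzymes was called by limma, and 0 of 5 had an unadjusted p under 0.05, against 0% called and 4.11% at an unadjusted p under 0.05 of 23140 probesets. TPI1 again had the widest estimate. In the order of sows 1406, 1410, 1411, 1417 and 1435, males of high feed efficiency read 5.86, 6.24, 6.30, 6.30 and 6.05, against 4.95, 6.30, 5.36, 6.49 and 5.98 in their brothers of low feed efficiency. In the same order, females of high feed efficiency read 6.38, 6.50, 5.58, 6.56 and 5.49, against 6.25, 6.998, 6.53, 6.14 and 6.47 in their sisters. The high minus low difference was 0.71 ± 0.34 larger in males than in females (SE, limma unadjusted p = 0.0545, adjusted p = 0.999), so that it did not pass the test.

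PGAM1 correlated with ALDOA and PGK1 across pigs, and ALDOA with HK1. Over the 10 pairs of enzymes the median Pearson r was 0.43, against 0.01 over 53514685 pairs of named genes, and 4 of 10 pairs had r of at least 0.5, against 5.34% of all pairs. The 10 pairs are drawn from 5 genes and are not independent, and the background of a single enzyme can be higher. Ranked by r with PGAM1 among 10345 named genes, ALDOA was at 101, PGK1 at 327, HK1 at 1273 and TPI1 at 5481. ALDOA and PGAM1 were the closest pair, with r = 0.80 (p = 1e-05, permutation test with 100000 resamples, two-sided, the smallest p they can give) and Spearman's rho = 0.80 (p = 6e-05). PGK1 and PGAM1 followed with r = 0.70 (p = 0.0006) and rho = 0.64 (p = 0.00295), and HK1 and ALDOA with r = 0.66 (p = 0.00158) and rho = 0.58 (p = 0.00757), by the same permutation tests over 20 pigs. HK1 and PGAM1 had r = 0.51 (p = 0.0214) and rho = 0.40 (p = 0.0836). These permutations treated littermates as exchangeable, so their p-values take no account of the shared sow and pen. With sow in the limma fit, PGAM1 on ALDOA had an adjusted p of 0.184 and ALDOA on PGAM1 one of 0.449. The other 6 pairs had r between 0.11 and 0.44, among them all 4 pairs that involve TPI1.

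Since littermates share a sow and a pen, the same pairs were read within litters. After centring on the litter the median r was 0.39, and 3 of 10 pairs reached 0.5, against 4.93% of all pairs. HK1 and ALDOA were at 0.78, HK1 and PGAM1 at 0.66 and ALDOA and PGAM1 at 0.64, while PGK1 and PGAM1 were at 0.45 and ALDOA and PGK1 at 0.04. Leaving out the 2 pigs farthest from the median of the first gene gave 0.76 for ALDOA and PGAM1, 0.53 for PGK1 and PGAM1, 0.58 for HK1 and ALDOA and 0.56 for HK1 and PGAM1. Without the litter of sow 1435, r was 0.74 for ALDOA and PGAM1, 0.54 for HK1 and ALDOA, 0.42 for PGK1 and PGAM1 and 0.31 for HK1 and PGAM1, so the last 2 pairs rested in part on that litter. Without the litter of sow 1411, r was 0.79 for HK1 and PGAM1 and 0.81 for HK1 and ALDOA, and without that of sow 1417, 0.80 for PGK1 and PGAM1. Without the male of low feed efficiency of sow 1435 alone, PGK1 and PGAM1 had r = 0.54.

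By group, ALDOA and PGAM1 had r = 0.92 in the 10 pigs of high and 0.63 in the 10 pigs of low feed efficiency, and PGK1 and PGAM1 had r = 0.49 and 0.91 in pigs of high and of low feed efficiency. Whether these differ between groups was not tested.

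**Figure D4:**
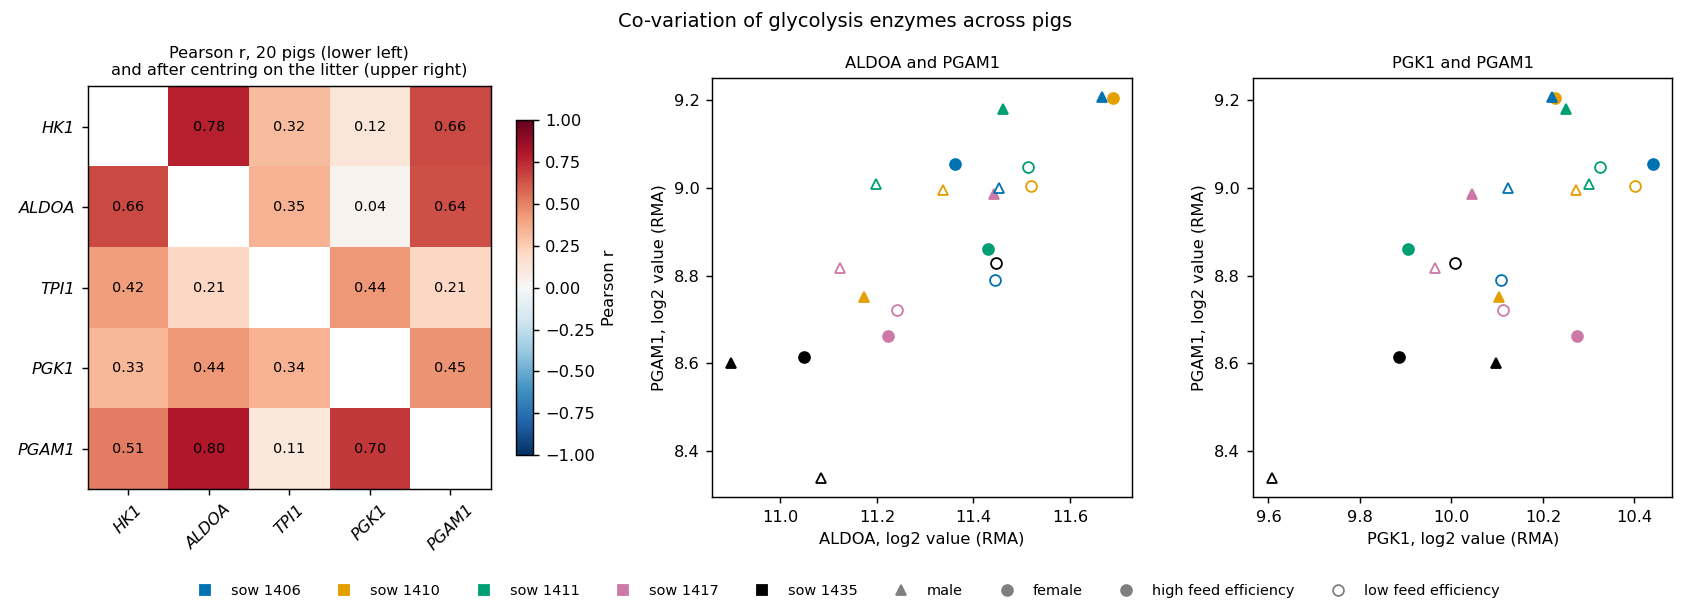
Left, Pearson r between the 5 enzymes over 20 pigs (below the diagonal) and after centring on the litter (above it). Middle and right, log2 RMA values of PGAM1 (y axis) against ALDOA and PGK1 (x axes), 1 point per pig, with r of 0.80 and 0.70 and 3 of 4 pigs of sow 1435 at the lower end of PGAM1.

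The co-variation was tested with the level of each enzyme in turn as a covariate beside sow, and p-values adjusted over all 23836 other probesets. By this limma fit 0 of 20 ordered pairs of enzymes were called, against 0.0587% of probesets for HK1, 0.264% for ALDOA and 0% for TPI1, PGK1 and PGAM1. The smallest adjusted p was that of ALDOA on HK1, with a slope of 1.20 per log2 unit of HK1 (limma adjusted p = 0.152, unadjusted p = 0.00217). With sow left out of the fit, 3 of 20 were called. PGAM1 was called on ALDOA (adjusted p = 0.00329), against 16% of all probesets for that covariate. ALDOA and PGK1 were called on PGAM1 (adjusted p = 0.00823 and 0.0265), against 9.54% of all probesets, and no enzyme was called on HK1, TPI1 or PGK1, against 0.0713%, 0% and 0%. The calls of this fit thus came with a broad background of probesets.

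The named genes most like each enzyme over the 20 pigs were other than its partners in the pathway. PGAM1 was followed most closely by EIF5A, a translation factor (r = 0.92), COPZ1, a coatomer subunit (r = 0.91), and SF3B5, a splicing factor subunit (r = 0.91), while ALDOA ranked 101 among 10345 genes. ALDOA was followed by POLD2, a subunit of DNA polymerase delta (r = 0.91), COQ4 of coenzyme Q synthesis (r = 0.89) and PSMD2 of the proteasome (r = 0.88), and PGAM1 ranked 78. PGK1 was followed by PRDX1, a peroxide-removing enzyme (r = 0.87), UBE2C, a ubiquitin-conjugating enzyme of mitosis (r = 0.83), and TNFSF13, a cytokine of the tumour necrosis factor family (r = 0.81), and PGAM1 ranked 45.

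HK1 was most like SEMA4G, a semaphorin (r = 0.88), GALNT12, which starts O-linked glycosylation (r = 0.86), and ACADS, the short-chain acyl-CoA dehydrogenase of butyrate oxidation (r = 0.85), with ALDOA at rank 93. TPI1 was most like FBXO42, an F-box protein (r = 0.82), PPARGC1B, a transcriptional coactivator (r = 0.77), and PARP4 (r = 0.70), with HK1 at rank 322. All these r are descriptions over the same 20 arrays.

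Pig number, the number in the sample titles, ran from 401 to 440, and its meaning is not stated in the labels or the methods. The 8 pigs of sows 1417 and 1435 carried numbers from 425 and the 12 others numbers up to 420, so number and litter overlap. ALDOA was lower at higher pig numbers, with r = -0.77 (p = 9e-05) and rho = -0.78 (p = 0.0001), as was PGAM1, with r = -0.74 (p = 0.00018) and rho = -0.78 (p = 0.00012), by permutation tests over 20 pigs and 5 relations. Leaving out the 2 pigs farthest from the median number gave r = -0.69 for ALDOA and -0.68 for PGAM1, and centring on the litter gave -0.62 and -0.34. HK1 (r = -0.36), TPI1 (r = 0.09) and PGK1 (r = -0.43) had permutation p of 0.119, 0.707 and 0.0547. The permutations took no account of litter, with which number overlaps.

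In limma with number alone, 2 of 5 enzymes were called, ALDOA (adjusted p = 0.00597) and PGAM1 (adjusted p = 0.00728), against 20.5% of 23837 probesets. With sow beside number, 0 of 5 were called, against 0.0042% of probesets, and ALDOA changed by -0.18 ± 0.07 per 10 numbers (SE, limma adjusted p = 0.208). With pig number beside sow, the slope of PGAM1 on ALDOA was 0.67, against 0.61 with sow alone, and that of ALDOA on PGAM1 0.52, against 0.68 (limma adjusted p = 0.39 and 0.642 with pig number, 0.184 and 0.449 without).

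**Figure D5:**
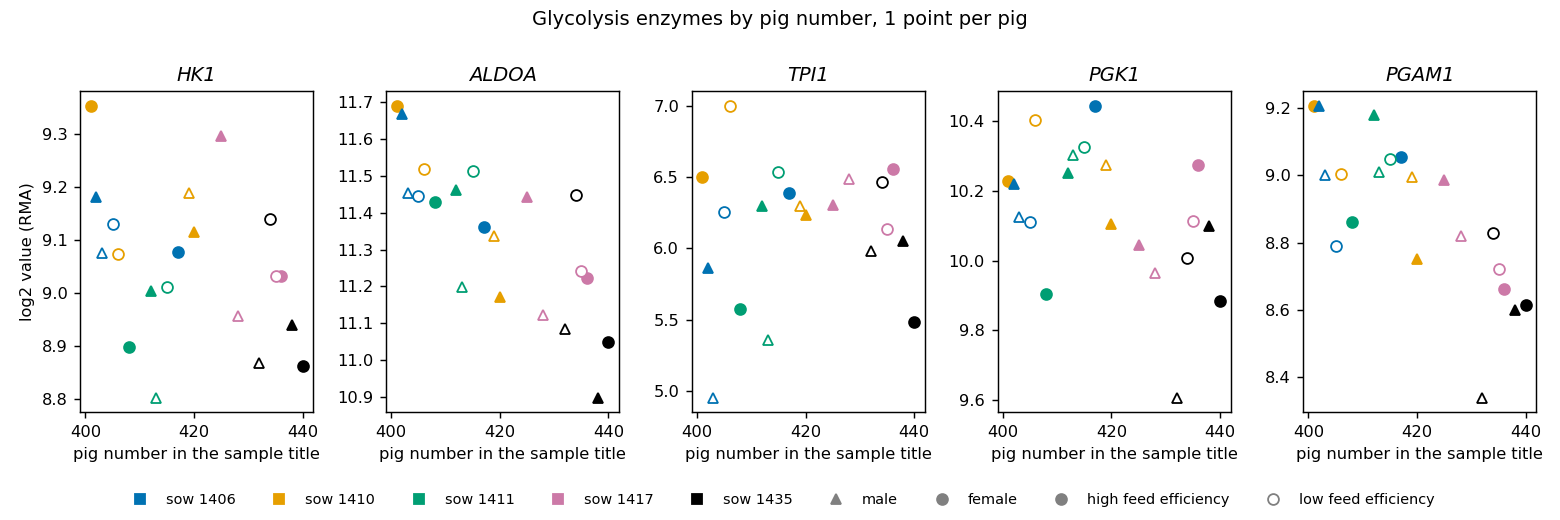
Log2 RMA values (y axis) of the 5 enzymes against the pig number of the sample title (x axis), 1 point per pig, with colours for sows, filled symbols for high and open symbols for low feed efficiency. ALDOA and PGAM1 are lower at high numbers (r of -0.77 and -0.74), where the litters of sows 1417 and 1435 lie.

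Other genes of the pathway also had no call. Of 19 other glycolytic enzymes and isoforms, 10 were measured, and 9 passed the filter on SD and were tested for feed efficiency. Of these, 0 were called, 0 had a limma unadjusted p under 0.05 and 7 were above 0, with a median difference of 0.07. Over all probesets 0% were called and 4.48% had such a p. HK3, a hexokinase of myeloid cells, averaged 5.06 ± 0.24 in pigs of high and 4.81 ± 0.29 in pigs of low feed efficiency (limma unadjusted p = 0.0683, adjusted p = 0.98), and PFKL, a phosphofructokinase, 8.42 ± 0.29 and 8.27 ± 0.29 in pigs of high and low feed efficiency (unadjusted p = 0.0737, adjusted p = 0.98; SD, n = 10 each). Between litters 0 of 10 were called and 1, PFKL, had a limma unadjusted p under 0.05, against 0.126% and 16.1% of all probesets. PFKL averaged 8.01 ± 0.17 in the litter of sow 1435 and 8.61 ± 0.13 in that of sow 1406 (SD, n = 4 each, limma unadjusted p = 0.000589, adjusted p = 0.102). PKLR, a pyruvate kinase, ranged from 5.15 in the litter of sow 1417 to 5.94 in that of sow 1411 (adjusted p = 0.462). The mean deviation of the measured genes of this list correlated with ALDOA at r = 0.78 and with PGAM1 at r = 0.67 over 20 pigs. For HK1, TPI1 and PGK1 its r was 0.31, 0.08 and 0.33.

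Of 11 glucose and lactate transporters, 10 were measured. For feed efficiency 0 of 8 tested by limma were called or had an unadjusted p under 0.05, against 0% and 4.48% of all probesets. For litter 0 of 9 were called and 2 had such a p, against 0.126% and 16.1%. SLC16A1, a carrier of lactate and butyrate, averaged 9.94 ± 0.30 in pigs of high and 10.17 ± 0.38 in pigs of low feed efficiency, and SLC2A4, the insulin-responsive glucose carrier, 4.88 ± 0.28 and 5.09 ± 0.20 in pigs of high and low feed efficiency (SD, n = 10 each; limma adjusted p = 0.98 for both). Between litters, the fructose carrier SLC2A5, which the SD filter left out of the feed efficiency test, averaged 4.36 ± 1.11 in the litter of sow 1406 and 7.001 ± 0.80 in that of sow 1435 (SD, n = 4 each; limma unadjusted p = 0.000528, adjusted p = 0.0984). SLC5A1, the sodium-coupled glucose carrier, averaged 7.04 ± 0.22 in the litter of sow 1435 and 7.84 ± 0.21 in that of sow 1410 (unadjusted p = 0.0012, adjusted p = 0.115).

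Of 16 regulators of glycolysis, 11 were measured. For feed efficiency 0 of 10 tested by limma were called or had an unadjusted p under 0.05, against 0% and 4.48% of all probesets. For litter 0 of 11 were called and 4 had such a p, against 0.126% and 16.1%. EGLN1 and EGLN2, oxygen-sensing prolyl hydroxylases, differed by -0.19 ± 0.11 and 0.12 ± 0.09 (SE, limma adjusted p = 0.98 for both). Between litters EGLN3, of the same family, was 5.37 in the litter of sow 1410 and 5.95 in that of sow 1435 (adjusted p = 0.232), and the coactivator PPARGC1A was 6.90 in the litter of sow 1411 and 7.62 in that of sow 1410 (adjusted p = 0.249). Of 14 genes of pyruvate entry to mitochondria, 10 were tested by limma. For feed efficiency 0 were called and 0 had an unadjusted p under 0.05, against 0% and 4.48% of all probesets. For litter 0 were called and 2 had such a p, against 0.126% and 16.1%. PDK4, a kinase that restrains pyruvate dehydrogenase, averaged 4.57 ± 0.60 in pigs of high and 4.94 ± 0.56 in pigs of low feed efficiency (SD, n = 10 each; limma adjusted p = 0.98), and 5.45 in the litter of sow 1435 against 4.24 in that of sow 1406 (adjusted p = 0.177). PDHA1, a subunit of pyruvate dehydrogenase, differed by -0.07 ± 0.08 for feed efficiency, and PDK1, a further kinase of that enzyme, by 0.40 between the highest and the lowest litter (adjusted p = 0.98 and 0.309).

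Gluconeogenesis (6 of 7 listed genes tested), the pentose phosphate pathway (2 of 8) and hypoxia-induced genes (9 of 13) had 0 calls and 0 unadjusted p under 0.05 for feed efficiency or litter by limma. Over all probesets 4.48% and 16.1% had such a p, and 0% and 0.126% were called, for feed efficiency and litter. The median feed efficiency differences of the lists were 0.04, 0.01 and -0.03, in the same order. In these lists the genes with the smallest p were G6PC and G6PC3 (glucose 6-phosphatases, -0.17 and -0.35), PGD and RPE (0.09 and -0.07), and MXI1 and ANKRD37 (-0.15 and -0.08) for feed efficiency, all at a limma adjusted p of 0.98. RPE averaged only 2.20, near the filter bound of 1.62, and G6PC and ANKRD37 averaged 3.50 each. For litter FBP1, fructose bisphosphatase, had a gap of 0.36 between litter means, G6PC one of 0.90, CA9, a carbonic anhydrase, one of 0.55 and MXI1 one of 0.61, with adjusted p between 0.319 and 0.37.

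Markers of other cell types were read beside the enzymes. Of 8 fibroblast and matrix genes, 7 were measured, none below 1.62. Their mean deviation ran from -0.64 to 0.54 in pigs of high and from -0.33 to 0.30 in pigs of low feed efficiency. It correlated at r = -0.68 with HK1, -0.63 with ALDOA, -0.42 with PGAM1, -0.27 with TPI1 and -0.08 with PGK1. For 7 measured of 13 epithelial genes the mean deviation ran from -0.47 to 0.51 and from -0.22 to 0.36 in pigs of high and low feed efficiency. Its r was 0.56 for ALDOA, 0.36 for PGAM1 and 0.26 for HK1, and -0.10 for both TPI1 and PGK1. For 4 measured of 7 enteric neuron and glia genes r was 0.58 for ALDOA and between -0.16 and 0.39 for the other enzymes. For 4 measured of 7 erythrocyte genes it was 0.43 for PGAM1 and between 0.02 and 0.35 for the others. Both lists hold dim genes. The erythrocyte genes averaged 3.24, 3.51, 3.57 and 5.65, and the neuron and glia genes 3.96, 4.66, 4.92 and 6.02. Array medians lay between 4.72 and 4.84, so these r may hold little signal of the cells. Macrophage and dendritic cell genes (6 of 10 measured) had r = -0.40 for HK1, -0.38 for ALDOA, -0.30 for PGAM1, -0.11 for PGK1 and -0.003 for TPI1. B and plasma cell genes (4 of 8 measured) had r = -0.50 for HK1 and between -0.22 and -0.16 for the others. Cell cycle genes (8 of 10 measured) had r = -0.43 for HK1, -0.44 for ALDOA and -0.16 for PGAM1, against 0.035 for TPI1 and 0.28 for PGK1. T and natural killer, smooth muscle and endothelial lists were within r of -0.33 and 0.37 for all 5 enzymes. Over all probesets, 31.9% had an unadjusted p under 0.05 on ALDOA in limma without sow, 26.7% on PGAM1 and 13.6% on HK1. The part of these cell types in the enzyme values was not tested.

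No gene of the marker lists was called for feed efficiency. Macrophage and dendritic cell genes were above 0 in 6 of 6 tested (median difference 0.29), of which 4 had a limma unadjusted p under 0.05. T and natural killer cell genes were above 0 in 9 of 10 (median 0.07), of which 3 had such a p. Over all probesets 4.48% had such a p and the median difference was 0.0035. The lists were chosen with earlier results of these data known, so these counts are descriptions and do not test the cell types. For litter, where 0.126% of all probesets were called and 16.1% had an unadjusted p under 0.05, all 4 B and plasma cell genes had an unadjusted p under 0.05 and 1 gene of the marker lists was called. This was MS4A1, encoding the B cell antigen CD20, at 8.25 ± 0.47 in the litter of sow 1435 and 5.82 ± 0.40 in that of sow 1406 (SD, n = 4 each, limma adjusted p = 0.0397). The mean deviation of the B and plasma cell list was highest in the litter of sow 1411, at 0.79, against 0.23 in that of sow 1435.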

How the data were processed

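RNA of caecal mucosa was hybridised by the authors to 1 array per pig for 20 pigs. The deposited table holds log2 values after robust multichip averaging with a custom probe assignment for Sscrofa11.1. The labels name GCOS 1.1.1. Of 47845 probesets 25092 had values, of which 16361 carried a gene symbol (331 updated). Tests used limma 3.58.1 in R 4.3.3 with Benjamini-Hochberg adjustment over all tested probesets (adjusted p under 0.05), and 100000 resamples for permutation tests. Probesets with a mean under the 5% quantile were left out, and for feed efficiency also those over the 95% quantile of SD in both groups. Slaughter batch is not in the labels and was not modelled. Pigs of a litter share sow and pen, and permutations treated them as exchangeable. The fits were also run on simulated data with noise independent between probesets, and the outcome is not given here. Genes named were the enzymes, in each other list called genes and the 2 with the smallest p for feed efficiency and for litter, and the 3 genes most like each enzyme. Of the cell type marker lists only the called gene and keratins are named. Members and lists were chosen with earlier results of these data known. Figures used matplotlib 3.10.9.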

Additional observations from a re-analysis of the deposited data

Results flagged for a closer look

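Among 65 groups of 4 to 10 pigs (by feed efficiency, sex, litter or feed efficiency and sex, for each of 5 enzymes), 4 had a pig far from the others by Dixon's criterion at 95%, where chance flags about 1 in 20 groups. For ALDOA it was the low feed efficient female of sow 1417 at 11.24, against 11.44 in the nearest of the 5 low feed efficient females. The other cases were 1 pig, the low feed efficient male of sow 1435. It read 9.61 for PGK1, against 9.96 in the nearest of 10 males. It read 8.34 for PGAM1, against 8.72 in the nearest of 10 low feed efficient pigs and 8.82 in the nearest of 5 low feed efficient males. No opposite movement of all males and all females was found for feed efficiency.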

How the results depend on the processing

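Over all alternatives, 164 of 165 counts of calls stayed the same. The exception was the co-variation of the enzymes, where 3 ordered pairs were called with the enzyme level alone in the model, against 0 with sow beside it. Of 280 single values outside the settings that leave pigs or litters out, 275 kept their direction and their side of the threshold, 3 passed it (those of the enzyme level alone) and 2 turned. With sow, feed efficiency and sex beside the enzyme level, the slope of PGK1 on ALDOA was -0.0514 and that of ALDOA on PGK1 -0.0547, against 0.04 for both with sow alone. Of 1000 values with a pig or a litter left out, 56 turned and 0 passed the threshold. The ranges of those that turned follow. For feed efficiency, ALDOA ran from -0.0338 to 0.0767, TPI1 from -0.157 to 0.0867 and PGK1 from -0.0255 to 0.087. For sex, HK1 ran from -0.0496 to 0.0123 and PGAM1 from -0.0401 to 0.0751. Slopes ran from -0.0657 to 0.363 for PGK1 on HK1, -0.0916 to 0.184 for PGK1 on ALDOA, -0.0344 to 0.143 for HK1 on PGK1 and -0.0858 to 0.205 for ALDOA on PGK1. The cause was not tested.

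Centring each array on its median gave r of 0.78 for ALDOA and PGAM1 and 0.62 for HK1 and ALDOA. The correlations after centring on the litter and the relations of each enzyme to pig number were added after seeing the data. With pairs of the same sow and sex as blocks, 0 enzymes were called for feed efficiency. Dim probesets (means near 5) and TPI1 limit what can be seen, since their intervals were the widest. Slaughter batch could not be fitted.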
